A study of Nannochloropsis oceanica with 36 samples.

Results

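A set of 80 genes of Nannochloropsis oceanica IMET1 had transcripts far above nitrogen-replete levels after 24 and 48 h without nitrogen. Averaged over 3, 4 and 6 h, their difference between media had been small. These 80 are called the late-raised genes here. The set was chosen from measured values. For each gene the difference between media at a time was the mean log2(FPKM + 1) of the N-deprived libraries less that of the N-replete libraries. FPKM is the number of sequenced fragments scaled to the length of the gene and to the fragments of the library. A gene belonged to the set if the mean of its differences at 24 and 48 h, the late difference, was at least 1.5 and the mean at 3, 4 and 6 h, the early difference, lay within 0.5 of 0. This held for 80 of 9647 genes that reached at least 1 FPKM in at least 3 libraries, out of 9756 gene models. Because the libraries of 3, 4, 6, 24 and 48 h chose the set, their values are given as a description without a test. The 12 h libraries took no part in the early and late differences, though the filter on FPKM counted all 36 libraries. At 12 h the media were compared with a test.

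The alga is a unicellular eustigmatophyte that is studied for its oil. In such algae, loss of nitrogen is known to slow growth, to reduce chlorophyll and chloroplast membranes, and to divert carbon into triacylglycerol stored in lipid bodies. Transcript changes in the first hours of such a shift can precede the visible build-up of oil, which takes longer.

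Cells of strain IMET1 in mid-logarithmic growth were washed with seawater and moved at equal numbers into N-replete or N-deprived medium, lit without breaks at some 50 µmol photons m-2 s-1, held at 25 °C and bubbled with air holding 1.5% CO2. Each medium had 3 replicate cultures, and RNA was taken at 3, 4, 6, 12, 24 and 48 h, which gave 12 groups of 3 and 36 libraries. Poly(A) RNA of whole cells was sequenced in pairs of 90 bp without strand information, and a label field that names the molecule as nuclear RNA is at odds with the protocol. FPKM is a share of a library, so a change in total mRNA per cell cannot be told apart from it.

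Summed FPKM per library ran from 475304 to 629498 and was higher in N-replete than in N-deprived medium at every time without overlap. Fragment totals were not used here. A depth relative to the median library was read from the steps in the FPKM of low genes. It ran from 0.726 to 1.62 in 35 libraries and used the 64 of 139 low genes in which such steps could be found, where 94.7% of 1427 values came within 0.1 of a whole number of fragments. The depth of N-replete 24 h replicate 1 could not be settled, at 1.36 with low genes under 3 FPKM, 0.191 under 2 FPKM and 2.71 under 5 FPKM. All 6 of the 12 h libraries, of either medium, were set off from the remaining 30. On the first principal component, with 53.1% of the variance, they lay at 96.9 to 102.1 and the others at -44.4 to 5.0.

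The files pair none of the 80 genes with a name, so each is given by its identifier and its 1-based position on a scaffold of a genome build that is not given in the sources used here, and no function is stated for any. The gene models lie on 32 scaffolds, with at most 7 on one scaffold, scaffold00354, where 311 genes were tested. Their median locus length was 2137 bp, introns included, with a range of 271 to 11119 bp. It was 2135 bp over all genes tested. Their mean level in N-replete medium had a median of 16.6 FPKM, lower than the 26.8 FPKM of all genes tested. A gene symbol is found in 1 identifier, isotig00738.DGAT1A, which refers to an acyltransferase that completes triacylglycerol. This gene was not in the set, with an early difference of 0.79 and a late difference of 1.25 on the log2 scale.

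The difference of the late-raised genes grew from 6 h on. Its median over the 80 genes was 0.25 at 3 h, 0.25 at 4 h, 0.41 at 6 h, 0.78 at 12 h, 1.59 at 24 h and 1.98 at 48 h on the log2(FPKM + 1) scale. Over all genes tested the median stayed between 0.04 and 0.16. The early difference was small but seldom 0. At 3 h the N-deprived libraries of 44 members lay above all N-replete ones and those of 8 below, where 36.8% and 16.1% of all genes tested did so. At 4 h these were 46 and 3 members, against 30.3% and 17.0%. At 6 h 59 members lay above and 0 below, against 27.1% and 19.5%. At that time 2 members already differed by at least 1 on the log2 scale and passed the rule through their values at 3 and 4 h. The 6 h difference was at least 0.5 for 33 members, and the highest was 1.54. "Raised only late" thus holds for the size of the mean difference over 3, 4 and 6 h. It does not hold for the presence of a difference, nor for its size at 6 h in every member. At 24 and 48 h all 80 members had libraries that did not overlap between media, as the rule made likely. Among all genes tested 42.3% lay above and 27.7% below at 24 h, and 47.8% and 31.7% at 48 h.

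**Figure D1:**
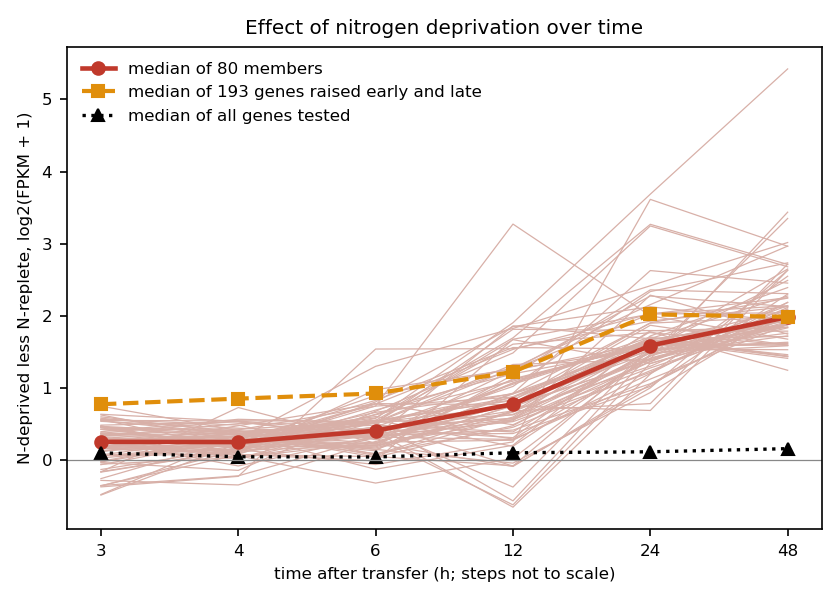
Difference between N-deprived and N-replete medium (log2(FPKM + 1), vertical axis) at each time after transfer (h, horizontal axis, steps not to scale); thin lines are the 80 members and thick lines medians. The median of the members climbs from 0.25 at 3 h to 1.98 at 48 h, that of 193 genes raised both early and late starts at 0.77, and that of all genes tested stays near 0.

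Genes close to the thresholds showed how narrowly some were kept or left out. With late differences of 1.50 and 1.51, scaffold00330.g9291 and scaffold00295.g8450 were just inside the late threshold. Just outside it were scaffold00185.g5785 and scaffold00140.g4574, both at 1.50 when rounded. The early differences of scaffold00328.g9133 and scaffold00009.g730 were both 0.49, just inside the early threshold. Those of scaffold00185.g5789 and scaffold00295.g8620, at 0.50 and 0.51, were just outside it. With each library centred on its median log2 ratio, which lowers the difference of all genes by 0.16 at 24 h and 0.15 at 48 h, the rule kept 65 genes, of which 56 were among the 80. The edge of the set therefore moves with the scaling.

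At 12 h, in libraries outside the early and late differences, most late-raised genes were already higher without nitrogen. Of the 80, 65 were called higher and 4 lower in N-deprived medium (limma, Benjamini-Hochberg adjusted p under 0.05). The share over all 9647 genes was 38.7% upward and 23.9% downward. A difference of at least 2-fold was called for 29 members upward and 0 downward, against 4.13% and 3.87% of all genes. The libraries of 66 members lay above all N-replete ones and those of 4 below, against 35.3% and 22.5% of all genes. With an exact comparison of 3 with 3 libraries, no single gene could reach a two-sided p under 0.10, so calls rest on the model that shares each gene's variance over all groups. Calls of all genes were rises in 61.8% of cases as deposited, in 52.1% after median-ratio centring and in 51.1% after quantile normalization. Among the members the number called higher was 62 after either. Leaving out replicate 1, 2 or 3 of every group gave 60, 60 and 63 called higher.

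**Figure D2:**
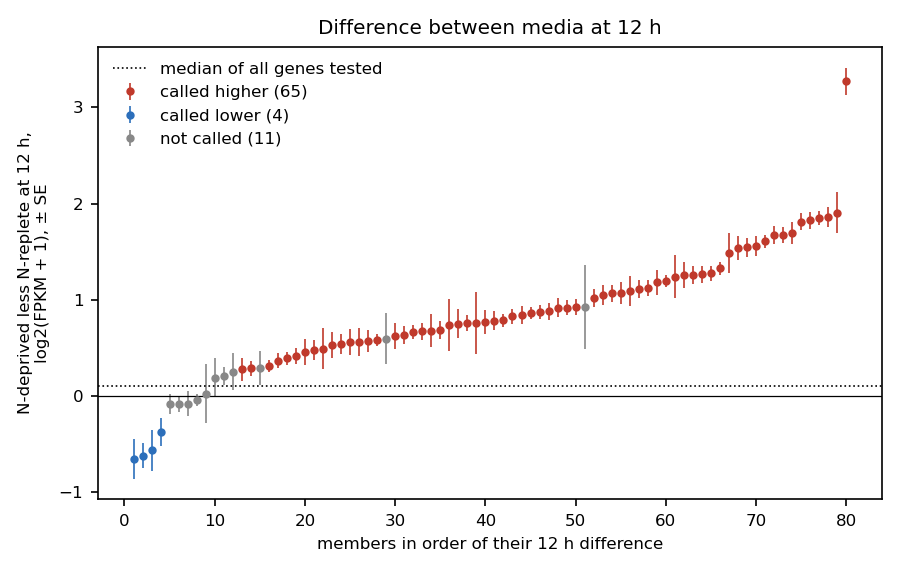
Difference between media at 12 h (log2(FPKM + 1), vertical axis) with its standard error from limma for each of the 80 members, in order of size along the horizontal axis; colours give the call, and the dotted line is the median of all genes tested. Most points lie above 0, 29 are called at 1 or more, and 4 are called below 0.

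Members differed widely in when they moved. At 12 h the difference was at least 1 on the log2 scale for 29 members, between 0.5 and 1 for 29, between -0.5 and 0.5 for 19, and -0.5 or lower for 3. Those not called at 12 h numbered 11, with differences from -0.09 to 0.93. Replicates spread widely in scaffold00354.g10113 (scaffold00354, 362857 to 363127), which stood at 6.81, 1.66 and 7.80 FPKM in N-deprived and 4.94, 3.48 and 0 FPKM in N-replete medium at 12 h. These libraries overlap, and its difference of 0.93 (SE 0.44) had an adjusted p of 0.0652 in limma. Without replicate 3 it was -0.18, and without replicate 2 it was 1.77 with an adjusted p of 0.00902.

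The largest late difference, 4.55, was that of scaffold00214.g6292 (scaffold00214, 715988 to 716939), a gene close to silent before 12 h. In N-deprived medium its libraries held 0.882, 0.550 and 0.367 FPKM at 3 h. They held 14.5, 14.1 and 11.1 FPKM at 12 h, and 55.3, 46.8 and 52.7 FPKM at 48 h. N-replete libraries held 2.52, 2.24 and 3.71 FPKM at 12 h. They held 0, 0.139 and 0.609 FPKM at 48 h. The gene thus went up in both media at 12 h, further without nitrogen, and stayed up only there. Its 12 h difference was 1.90 (SE 0.21; limma, adjusted p = 5.54e-09). The model next to it, scaffold00214.g6293, had a larger late difference of 6.04 but also an early one of 1.06, which kept it out of the set.

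Next in late difference was scaffold00271.g8199 (scaffold00271, 871659 to 873245), at 3.29. At 12 h it stood at 14.5, 15.2 and 18.2 FPKM in N-deprived and 15.7, 11.2 and 13.0 FPKM in N-replete medium. These libraries overlap, with a difference of 0.25 (SE 0.19; limma, adjusted p = 0.263). At 24 h the media were far apart, at 49.8, 56.0 and 46.9 against 3.06, 3.20 and 3.44 FPKM. The level was higher at 12 h than at 6 h in both media, and by 24 h the level had fallen back in N-replete medium only.

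A gene that moved in opposite directions in the media was scaffold00140.g4546 (scaffold00140, 123174 to 125321). At 3 h its N-deprived libraries were the lower ones, at 37.0, 34.1 and 32.6 against 47.4, 46.8 and 51.2 FPKM. At 12 h they were higher, at 83.2, 72.8 and 67.0 against 19.95, 22.8 and 24.0 FPKM. The groups do not overlap at either time, and their order had turned. Its 12 h difference was 1.69 (SE 0.11; limma, adjusted p = 3.77e-14). At 24 h it reached 145, 209 and 176 FPKM without nitrogen against 17.4, 17.4 and 16.9 FPKM with it.

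Other members with a large late difference included both scarce and abundant transcripts. At scaffold00341, scaffold00341.g9769 (165884 to 166717) stood under 1 FPKM in all N-replete libraries of 24 and 48 h and between 8.24 and 17.1 FPKM in the N-deprived ones. The gene scaffold00341.g9791 (221012 to 222356), on the same scaffold, reached 630.5, 609 and 529 FPKM without nitrogen at 24 h against 111, 107 and 110.1 FPKM with it. Both were called higher at 12 h, by 1.49 (SE 0.21; adjusted p = 3.74e-07) and 1.83 (SE 0.09; limma, adjusted p = 1.95e-17). Transcripts of scaffold00080.g2774 (scaffold00080, 845335 to 852433) climbed in N-deprived medium, with 2.26 ± 0.0469 FPKM at 3 h and 44.0 ± 1.79 FPKM at 48 h (SD, n = 3 each). In N-replete medium they went from 1.91 ± 0.256 to 5.76 ± 0.190 FPKM, so the gene rose with time in either medium, less so with nitrogen.

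**Figure D3:**
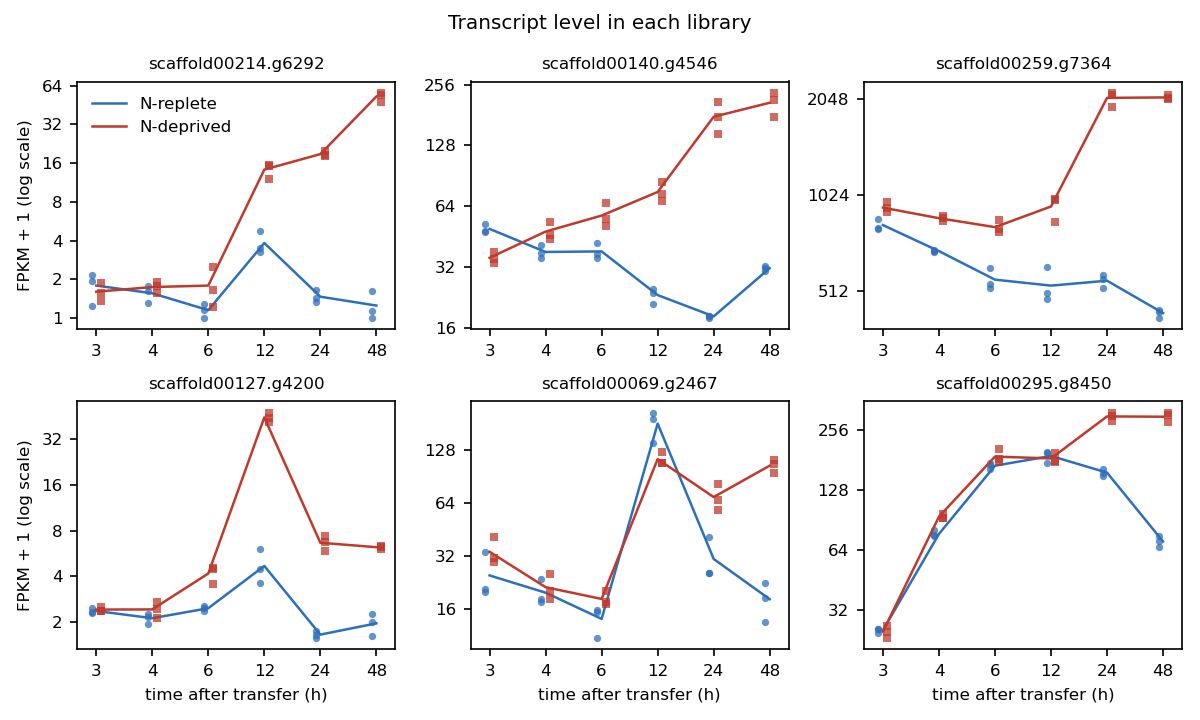
Level of 6 members in every library (FPKM + 1, log scale, vertical axis) against time after transfer (h, horizontal axis, steps not to scale); points are libraries and lines join group means. The libraries of scaffold00214.g6292 overlap between media up to 6 h and not from 12 h on, those of scaffold00140.g4546 change order after 3 h, scaffold00127.g4200 is highest at 12 h, scaffold00069.g2467 is at its highest at 12 h in both media, and scaffold00295.g8450 overlaps at 12 h and not at 24 h.

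The most abundant member was scaffold00259.g7364 (scaffold00259, 522737 to 524992), whose mean over the N-deprived libraries of 24 and 48 h was 2061 FPKM. It was plentiful from the start, at 899, 967 and 927 FPKM without and 795.5, 806 and 861 FPKM with nitrogen at 3 h. At 12 h it stood at 993, 986 and 837 against 481, 502 and 607 FPKM, a difference of 0.83 (SE 0.08; limma, adjusted p = 9.19e-11). Its level in N-replete medium fell to 434.6 ± 13.6 FPKM at 48 h (SD, n = 3), so the media parted from both sides.

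The other members among the 6 most abundant followed different courses. Transcripts of scaffold00026.g1094 (scaffold00026, 295365 to 300464) rose in both media to 12 h, at 611 ± 36.2 FPKM without and 492.5 ± 31.3 FPKM with nitrogen. They then fell with nitrogen to 163 ± 6.65 FPKM at 48 h and stood at 792 ± 18.1 FPKM without it (SD, n = 3 each). In N-replete medium those of scaffold00354.g10018 (scaffold00354, 121341 to 123551) had their lowest mean at 3 h, 208 ± 8.64 FPKM. Their highest mean there was 355 ± 19.4 FPKM at 12 h. Without nitrogen they reached 685 ± 42.2 FPKM at 48 h (SD, n = 3 each). The gene scaffold00112.g3987 (scaffold00112, 178792 to 182986) began lower without nitrogen, at 31.2 ± 1.77 against 43.96 ± 1.46 FPKM at 3 h, and ended at 343 ± 25.0 against 42.96 ± 2.23 FPKM at 48 h (SD, n = 3 each). These 3 were called higher at 12 h, by 0.31, 0.58 and 1.27 (SE 0.06, 0.07 and 0.08; limma, adjusted p = 6.19e-05, 6.08e-09 and 4.84e-15). The remaining member of the 6 besides scaffold00341.g9791, scaffold00330.g9291 (scaffold00330, 403284 to 408641), stood at 112, 107 and 85.8 against 83.6, 76.7 and 88.0 FPKM at 12 h. Its libraries overlap, and the call (0.29, SE 0.08; limma, adjusted p = 0.00335) was lost without replicate 1 (0.22), without replicate 2 (0.19) and when libraries of other times were left out (adjusted p = 0.0659).

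The largest 12 h difference was that of scaffold00127.g4200 (scaffold00127, 120446 to 124007), at 43.0, 46.7 and 40.3 FPKM in N-deprived and 2.60, 3.44 and 5.01 FPKM in N-replete medium at 12 h. The difference was 3.27 (SE 0.14; limma, adjusted p = 1.83e-18). By 24 h it had dropped to 4.84, 6.42 and 5.70 FPKM without nitrogen, against 0.578, 0.743 and 0.650 FPKM with it. It held 5.22 ± 0.184 FPKM without nitrogen at 48 h, against 1.42 ± 0.0976 FPKM at 3 h (SD, n = 3 each), and its late difference was 1.84. The step from 6 to 12 h was 3.41 without and 0.89 with nitrogen on the log2 scale. Of the others with a large 12 h difference, scaffold00096.g3688 (scaffold00096, 671366 to 674738) held its level without nitrogen, at 20.7 ± 0.534 FPKM at 6 h and 21.7 ± 1.78 FPKM at 12 h. With nitrogen it went from 11.4 ± 1.30 to 5.30 ± 0.558 FPKM (SD, n = 3 each). Its 12 h difference was 1.85 (SE 0.08; limma, adjusted p = 4.98e-19), and the step from 6 h was -0.98 with and 0.06 without nitrogen.

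The step from 6 to 12 h showed the members against a shift in the median of all genes tested. Over all genes tested the median step on the log2 scale was -0.68 with nitrogen and -0.59 without it. The members' medians were -0.07 and 0.33. Since the 6 h libraries took part in choosing the set, these steps are given without a test. With nitrogen 11 members stood 2-fold or more above their 6 h level at 12 h and 8 stood that far below it, against 10.8% and 31.8% of all genes. Without nitrogen 19 were at least 2-fold higher and 2 lower, against 10.6% and 26.4%. After median-ratio centring 27 were higher and 1 lower with nitrogen, against 17.4% and 6.76% of all genes. Without nitrogen 37 were then higher and 1 lower, against 17.1% and 6.33%. All 11 that were at least 2-fold higher with nitrogen were so without it too.

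**Figure D4:**
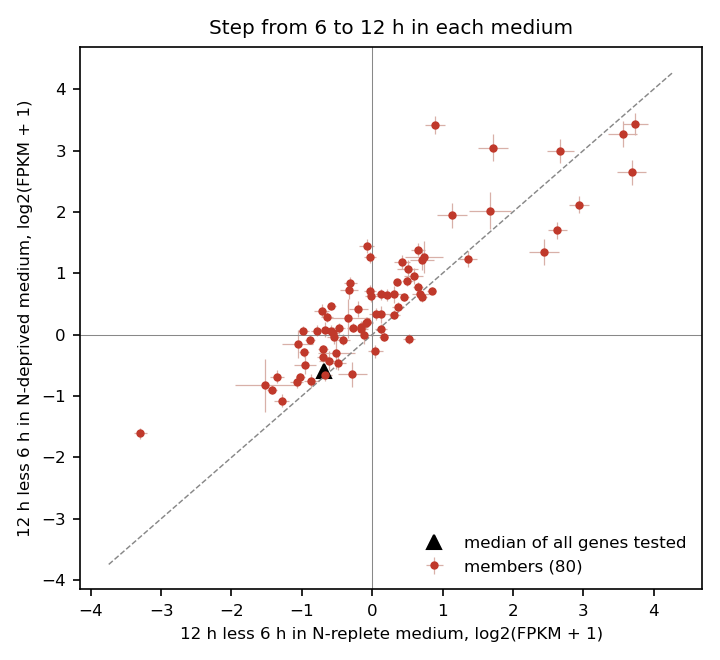
Step from 6 to 12 h (log2(FPKM + 1)) in N-replete medium (horizontal axis) and N-deprived medium (vertical axis) for the 80 members, with standard errors from limma; the dashed line marks equal steps and the triangle the median of all genes tested. Most members lie above the dashed line, and those at the upper right were higher at 12 h in both media.

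Among these 11 genes were the 4 members that were called lower in N-deprived medium at 12 h. At that time scaffold00069.g2467 (scaffold00069, 687474 to 688674) stood at 108, 124 and 107.5 FPKM without and 193, 139.7 and 208 FPKM with nitrogen. The groups did not overlap, with a difference of -0.65 (SE 0.21; limma, adjusted p = 0.00698). At 48 h the order was the opposite, at 112, 105 and 93.3 against 21.5, 12.5 and 17.6 FPKM. The level without nitrogen was thus close at 12 and 48 h, but lower in between, at 65.8, 81.3 and 57.7 FPKM at 24 h. With nitrogen the level at 48 h was far below that at 12 h. The other 3 had 12 h differences of -0.62 (SE 0.13; adjusted p = 1.71e-04) for scaffold00354.g10055 (scaffold00354, 226876 to 228790), -0.57 (SE 0.21; adjusted p = 0.0213) for scaffold00341.g9763 (scaffold00341, 151736 to 153465) and -0.37 (SE 0.14; limma, adjusted p = 0.0226) for scaffold00271.g8041 (scaffold00271, 390413 to 392991). Leaving out replicate 1 of every group left 1 of these 4 calls, that of scaffold00354.g10055, and leaving out replicate 3 left 2. Without replicate 1 the adjusted p was 0.066 for scaffold00069.g2467, 0.167 for scaffold00341.g9763 and 0.374 for scaffold00271.g8041. Without replicate 3 it was 0.055 for scaffold00069.g2467 and 0.13 for scaffold00341.g9763.

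For most members the late difference came with a rise in N-deprived medium rather than a fall in N-replete medium. From the mean of 3, 4 and 6 h to the mean of 24 and 48 h, the log2 level went up in N-deprived medium in all 80, and by at least 1 in 72. The median change was 1.52 without and 0.00 with nitrogen, where 39 members went down. Over all genes tested these medians were 0.11 and -0.02. The rule itself makes the change without nitrogen exceed that with it by more than 1 in every member, so this gap is no separate result. Genes raised both early and late had a similar profile, with medians of 1.23 without and 0.05 with nitrogen. Shares of all genes for the counts of rises and falls were not computed. In 5 members the change with nitrogen was at least as large in size as that without. The deepest fall with nitrogen was that of scaffold00349.g9917 (scaffold00349, 112422 to 115931), which stood at 276, 272.5 and 286 FPKM at 3 h and at 61.7, 65.8 and 68.7 FPKM at 48 h. Without nitrogen it stood at 224, 239 and 223 FPKM at 3 h and at 283, 263 and 271 FPKM at 48 h. The groups do not overlap at either time, and their order turned. It differed by 0.79 at 12 h (SE 0.07; limma, adjusted p = 3.51e-11), where both media were at their lowest, at 96.5 ± 3.04 and 56.0 ± 9.50 FPKM (SD, n = 3 each). A like course was seen in scaffold00330.g9242 (scaffold00330, 274918 to 276522). It fell to 5.24 ± 1.00 FPKM without and 0.938 ± 0.0951 FPKM with nitrogen at 12 h, then stood at 55.8 ± 3.25 and 12.8 ± 0.205 FPKM at 48 h (SD, n = 3 each). Its 12 h difference was 1.68 (SE 0.09; limma, adjusted p = 1.11e-16).

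**Figure D5:**
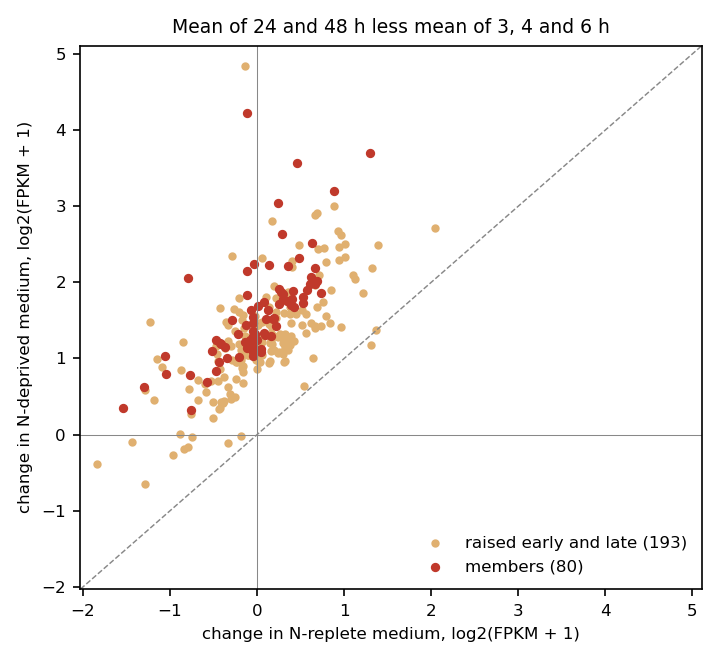
Change from the mean of 3, 4 and 6 h to the mean of 24 and 48 h (log2(FPKM + 1)) in N-replete medium (horizontal axis) and N-deprived medium (vertical axis) for the 80 members and, for comparison, 193 genes raised early and late; the dashed line marks equal changes. All 80 members lie above 0 on the vertical axis, while along the horizontal axis they spread on both sides of 0. The rule places every member above the dashed line.

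Between 24 and 48 h the difference widened for 60 of the 80 members, and by at least 1 for 10. Its median change was 0.35 over the members, 0.01 over all genes tested and -0.01 over genes raised both early and late. Both times entered the rule, and shares of all genes for these counts were not computed. The widening in the 10 members took different forms. In 6 of the 10 the level without nitrogen went up by at least 0.5 on the log2 scale, in 6 the level with nitrogen went down by at least 0.5, and in 2 both occurred. The first form was seen in scaffold00127.g4471 (scaffold00127, 907399 to 908293), which stood at 9.56, 9.12 and 6.32 FPKM at 24 h and at 37.7, 38.2 and 32.9 FPKM at 48 h without nitrogen. With nitrogen it stood at 2.60, 4.10 and 1.31 FPKM and then at 3.10, 1.33 and 3.22 FPKM. Its 12 h difference of 0.74 (SE 0.27; limma, adjusted p = 0.0181) was not called without replicate 1 (adjusted p = 0.0945) or without replicate 3 (adjusted p = 0.104).

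The same form was seen in scaffold00354.g9975 (scaffold00354, 6752 to 8631), whose N-replete libraries of 3 and 4 h were all listed at 0. It stood at 0.911, 0.765 and 0.886 FPKM at 24 h and at 6.76, 6.72 and 7.19 FPKM at 48 h without nitrogen and reached at most 0.335 FPKM with it at these times. At 12 h it differed by 0.75 (SE 0.15; limma, adjusted p = 7.28e-05). At such levels the added 1 FPKM holds down the log2 difference. Both media took part in scaffold00080.g2702 (scaffold00080, 641248 to 642870), at 3.64, 3.96 and 1.81 FPKM at 24 h and 8.15, 7.46 and 8.27 FPKM at 48 h without nitrogen. With nitrogen it went from 1.06, 1.35 and 1.61 FPKM to 0.314, 0.222 and 0.570 FPKM.

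The second form, a fall with nitrogen while the level without it held, was clearest in scaffold00111.g3924 (scaffold00111, 22597 to 23031). With nitrogen it stood at 3.14, 4.84 and 6.61 FPKM at 24 h and at 0.445, 0.422 and 1.39 FPKM at 48 h. Without nitrogen it stood at 18.0, 12.2 and 14.3 FPKM and then at 13.8, 19.0 and 16.6 FPKM. Before 12 h it was listed at 0 in several libraries of either medium. At 12 h its media overlapped, with a difference of 0.02 (SE 0.30; limma, adjusted p = 0.948). The gene scaffold00295.g8450 (scaffold00295, 383859 to 386350) climbed in both media, from 24.4 ± 0.595 to 169 ± 5.18 FPKM with nitrogen between 3 and 6 h and from 24.0 ± 1.72 to 188 ± 15.0 FPKM without it (SD, n = 3 each). At 12 h its media overlapped, at 197, 177 and 178 FPKM without and 196, 175 and 197 FPKM with nitrogen (difference -0.04, SE 0.07; limma, adjusted p = 0.6). It then fell with nitrogen to 69.9 ± 4.48 FPKM at 48 h and stood at 299 ± 17.3 FPKM without it (SD, n = 3 each).

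The difference narrowed most between 24 and 48 h in 3 genes already described, by -0.65 for scaffold00271.g8199, -0.57 for scaffold00341.g9769 and -0.56 for scaffold00140.g4546. No member narrowed by 1 or more.

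Some members were neighbours in the genome. They included 6 pairs of neighbouring gene models, 12 genes in all, and 4 members lay next to a gene raised both early and late. A neighbour with a late difference of at least 1.5 was found for 16 members, or 20.0%, and for 5.30% of all genes tested. Of these 16 members, 12 are the genes of the pairs, each counted through its partner. Genes raised both early and late also include models with consecutive numbers, such as scaffold00070.g2470 and scaffold00070.g2471. The share with such a neighbour was not computed for them, so it is not shown to be particular to the members. No member overlapped its neighbour, but the gaps within the pairs were short, from 10 to 115 bp. Without strand information, fragments that run from one model into the next cannot be assigned with certainty, and their part in the values of the pairs was not tested.

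The 12 h values of the pairs did not enter the early or late difference. Transcripts of scaffold00104.g3857 (scaffold00104, 242745 to 244569) and scaffold00104.g3858 (244635 to 247869) stood at 73.3 ± 3.86 and 82.3 ± 4.61 FPKM without nitrogen at 12 h, against 19.5 ± 1.48 and 22.7 ± 1.71 FPKM with it (SD, n = 3 each). Their 12 h differences of 1.86 (SE 0.11; adjusted p = 1.62e-15) and 1.81 (SE 0.09; limma, adjusted p = 1.61e-17) were as large as their late ones, at 1.70 and 1.79.

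Other pairs differed in course from the first. On scaffold00140, scaffold00140.g4530 (67936 to 69360) and scaffold00140.g4531 (69476 to 70221) peaked at 12 h in both media. They stood at 39.4 ± 3.96 and 45.7 ± 5.24 FPKM without and at 31.9 ± 2.27 and 32.3 ± 4.67 FPKM with nitrogen (SD, n = 3 each). From 6 h these were steps of 3.43 and 3.27 without and of 3.74 and 3.56 with nitrogen on the log2 scale. Only scaffold00140.g4531 was called between media at 12 h (0.49, SE 0.21; limma, adjusted p = 0.0452, and 0.158 for its partner). That call was lost with a pseudocount of 0.1 FPKM (adjusted p = 0.121), with centring (0.0853), with quantile normalization (0.0721), without replicate 2 (0.333) and without replicate 3 (0.0623).

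A pair on scaffold00043, scaffold00043.g1974 (1273495 to 1275979) and scaffold00043.g1975 (1276035 to 1277369), climbed in both media and then fell back with nitrogen. The first stood at 49.1 ± 3.51 FPKM at 24 h and 21.8 ± 0.894 FPKM at 48 h with nitrogen, and at 101 ± 11.6 and 112 ± 7.84 FPKM without it (SD, n = 3 each). At 12 h these differed by 0.37 and 0.42 (SE 0.08 each; limma, adjusted p = 9.98e-05 and 3.93e-05). The pairs scaffold00007.g198 and scaffold00007.g199 (scaffold00007, 498961 to 501381 and 501471 to 503282) and scaffold00214.g6209 and scaffold00214.g6210 (scaffold00214, 465893 to 467095 and 467151 to 472415) were lower at 12 h than at 6 h with nitrogen. The steps of these genes, -0.55 to -0.70 on the log2 scale, lay near the median of all genes tested with nitrogen, -0.68. Both pairs were higher without nitrogen at 12 h. Their 12 h differences were 0.67, 0.78, 0.76 and 0.66 (SE 0.09, 0.10, 0.09 and 0.07; limma, adjusted p at most 7.69e-08). In the last pair, scaffold00295.g8449 and scaffold00295.g8450, neither partner was called at 12 h, with differences of -0.09 (SE 0.10; limma, adjusted p = 0.478) and -0.04 (SE 0.07; adjusted p = 0.6).

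Summed as a share of the library, the 80 members went from under to well over 1% of summed FPKM without nitrogen. They held 0.574 to 0.602% at 3 h, 0.687 to 0.717% at 6 h and 1.02 to 1.05% at 12 h. At 24 and 48 h they held 1.69 to 1.71% and 1.80 to 1.85%, times at which the rule had selected for higher levels. The sum leans on few genes. In the N-deprived libraries of 24 and 48 h the members summed to 8639 to 9982 FPKM, and scaffold00259.g7364 alone averaged 2061 FPKM there. With nitrogen the share was 0.510 to 0.520% at 3 h, 0.584 to 0.610% at 12 h and 0.385 to 0.388% at 48 h. The media did not overlap at 12 h, nor at any other time from 3 h on.

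A further 193 genes had a late difference of at least 1.5 and an early one of at least 0.5, and so differ from the late-raised genes before 12 h by definition. At 12 h, which entered neither the early nor the late difference, 81.2% of the members and 91.7% of those genes were called higher. A call of at least 2-fold higher was made for 36.2% and 64.8%. The median 12 h difference was 0.78 and 1.22. Genes are not replicates, and the differences between these sets were not tested.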

How the data were processed

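Each deposited table holds FPKM for every gene model. The submitters' processing notes list Cufflinks 2.0.2 and TopHat2 2.0.4, without settings or roles. The genome build is not given in the sources used here. The 36 per-library tables and the table of the series differed in 0 values. Groups came from the library titles. Genes that reached 1 FPKM in 3 or more libraries entered the tests as log2(FPKM + 1), so differences of low genes are understated. A mean for each of 12 groups was fitted over all 36 libraries with limma 3.58.1 in R 4.3.3 (trended prior), with Benjamini-Hochberg adjustment over 9647 genes and a call at an adjusted p under 0.05. The media were tested at 12 h. A test of 12 h against 6 h within each medium was planned and is given as a description, because the 6 h libraries entered the rule. The depth of the libraries was also read with other ceilings on the low genes, chosen after seeing the data. Fragments of near-identical genes may be split between them, and 0 of 160 genes in the reference table matched an identifier. The members, lists and comparisons were chosen with earlier results of these data known. Named genes were those with the largest late difference (10), the highest level without nitrogen (6), the largest (5) and smallest (4) 12 h difference, the largest and smallest widening from 24 to 48 h (3 each), the deepest fall with nitrogen (3), 5 neighbouring pairs and those next to the thresholds. The pair of scaffold00295.g8449 was named after its values were seen. Each medium had 3 cultures sampled over time, but the labels do not tie a replicate number to a culture, so p-values treat libraries as independent. Yet at every time replicate 3 had the highest summed FPKM in N-replete and the lowest in N-deprived medium. Rises made up 56.5, 56.9 and 70.5% of all 12 h calls without replicate 1, 2 and 3, against 61.8% with all. The members' median 12 h difference was then 0.73, 0.80 and 0.93, against 0.78.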

Additional observations from a re-analysis of the deposited data

Results flagged for a closer look

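In 4 members every N-deprived library lay below every N-replete library at 12 h and above every one at 24 and at 48 h. The 12 h differences on the log2(FPKM + 1) scale were -0.65 for scaffold00069.g2467, -0.62 for scaffold00354.g10055, -0.57 for scaffold00341.g9763 and -0.37 for scaffold00271.g8041. Whether the effect of deprivation differed between these times was not tested, since the libraries of 24 and 48 h had chosen the members. The same order of libraries was found for 288 of all genes tested, or 2.99%, and the 4 members are 5.0% of the 80. These shares are not like for like. All 80 members lay above at 24 and at 48 h, as the rule made likely, against 42.3% and 47.8% of all genes tested. The order is therefore not shown to be more frequent among the members. All 6 libraries of 12 h stood apart from the others in both media, and their part in this pattern was not tested.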

How the results depend on the processing

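The number of members was 94 with a pseudocount of 0.1 FPKM (66 shared with the 80), 65 with median-ratio centring (56 shared), 95 with quantile normalization (72 shared), and 77 to 100 when a replicate was left out (70 to 73 shared). A late difference of at least 2 kept 22 and an early one within 0.25 kept 30. At 12 h the members called higher numbered 60 to 66 under all alternatives run, and those called lower 4, except for 1 to 4 when a replicate was left out. With the replicate number as a block, 65 members were called higher and 4 lower, and 5961 genes in all against 6033; the block changed no call of a named member. Same-numbered libraries of the media did not deviate together at 12 h (correlations of deviations -0.27 to -0.06). Over all times the 18 correlations ran from -0.27 to 0.41, with 4 above 0.1, at 4 and 6 h. Of 18 N-replete libraries, 5 correlated best with their own number. The numbers are not taken as pairs. Culture as a random effect (estimated correlation 0.122) gave 65 and 4.

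From 6 to 12 h, members at least 2-fold higher (no test) became 27 with and 37 without nitrogen after centring, where 17.4% and 17.1% of all genes were. Those at least 2-fold lower became 1 with and 1 without nitrogen after centring, against 6.76% and 6.33%, and 4 and 1 after quantile normalization. The 12 h difference of scaffold00111.g3924 turned to -0.0569 with centring and -0.21 with quantile normalization, and ran from -0.17 to 0.19 with a replicate left out. That of scaffold00295.g8450 turned to 0.21 with quantile normalization (adjusted p = 0.00387) and ran from -0.0702 to 0.0122 with a replicate left out. That of scaffold00354.g10113 ran from -0.18 to 1.77. The cause was not tested. Low FPKM, where 1 fragment weighs much, limit the precision of the scarcest members.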
